A study of Rattus norvegicus with 4 samples.

Results

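The genes described here are 10 components of the NF-kB pathway in rat alveolar macrophages of the NR8383 line: 3 subunits of the transcription factor (Rela, Nfkb1 and Nfkb2), 4 of its inhibitors and modulators (Nfkbia, Nfkbie, Bcl3 and Tnip1) and 3 of its target genes (Icam1, Ier3 and Tnfaip2). They were chosen by name, with earlier results of these data known. Their probes were found through the RefSeq accession of each spot. All 10 genes had a probe, 12 probes in 21 spots, out of 16581 genes matched to a probe in this way. Only 46.3% of the probes on the array could be matched to a gene. NR8383 is an established macrophage line first grown from rat lung lavage, kept partly adherent and partly floating, and it was described as being at 20 passages. The 4 samples were cultures seeded for 48 h in flasks and exposed for 4 h, at a surface dose of 11 cm2 per cm2, to the single-walled carbon nanotube NRCWE055 in its pristine form. They form 1 exposed group, named by its titles and treatment entries, while the source names of replicates 2, 3 and 4 end in other nanotube numbers. Unexposed cells are part of the design and were not analysed here, so the values below are levels in exposed cells and not responses to the nanotube.

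NF-kB is a family of dimeric transcription factors that inhibitor proteins hold in the cytoplasm. Receptors for bacterial products and for inflammatory cytokines activate the IkB kinase complex, which marks the inhibitors for destruction, and the freed dimers enter the nucleus and bind kB motifs in gene promoters. Many of the genes they activate encode the pathway's own subunits and inhibitors, and this feedback limits the response. In alveolar macrophages the pathway is known for driving cytokine and adhesion molecule genes after particles or microbes are taken up.

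Promoter sequence was examined first, because autoregulation of this pathway runs through kB motifs. RefSeq promoter windows on build GRCr8, which cover 250 bases before and 50 after the transcript start used there, were found for 9 of the 10 genes, the exception being Ier3. The 10-base kB consensus, searched on both strands, was present in 6 of these 9 windows, those of Nfkb1, Nfkb2, Nfkbia, Nfkbie, Bcl3 and Tnip1. It was present in 7.60% of 27457 promoters of the same length and in 9.47% of the 7275 promoters of genes detected on all 4 arrays. Among upstream kinases, adaptors and brakes of the pathway with a probe, 2 of 17 promoters held it (11.8%). The members were chosen as genes of this pathway and not at random, so these shares are a description only. The windows of Rela, Icam1 and Tnfaip2 held no such match. Icam1 held the run TGGAAATTCC, the form known from the human ICAM1 promoter. The run was taken from the Icam1 window itself after the sequences had been seen, so its match there was fixed in advance. It occurs in 0.113% of all promoters. The same run overlaps the consensus match in Nfkb1 and in Nfkbia. The looser form GGGNNNNNCC, which contains the consensus, was present in 100% of the 9 windows, in 65.3% of promoters of genes detected on all arrays and in 48.5% of all promoters. A match describes these letters only and is no evidence of binding. The 7 stretches that hold a match are shown 5′ to 3′ on the strand of the gene, with the matched bases in capitals.
Nfkb1: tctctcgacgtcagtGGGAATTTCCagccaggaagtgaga
Nfkb2: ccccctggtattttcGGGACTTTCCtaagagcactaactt
Nfkbia: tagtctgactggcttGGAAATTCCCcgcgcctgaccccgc
Nfkbie: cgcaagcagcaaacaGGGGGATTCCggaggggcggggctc
Bcl3: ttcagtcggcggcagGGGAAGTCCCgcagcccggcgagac
Tnip1: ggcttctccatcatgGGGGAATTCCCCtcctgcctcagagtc
Icam1: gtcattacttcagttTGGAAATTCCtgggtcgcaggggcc

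The matches of the subunit genes Nfkb1 and Nfkb2 and of the inhibitor genes Nfkbia and Bcl3 began within 38 bases of the start. The Nfkb1 stretch lies at chr2:226805435-226805474 on the minus strand, and its match begins at base 4 of the transcript. The Nfkb2 stretch lies at chr1:255108339-255108378 on the plus strand, with its match 20 bases before the start. The Nfkbia stretch lies at chr6:78597079-78597118 on the minus strand, its match 31 bases before the start and reading as the consensus on the opposite strand. The Bcl3 match, at chr1:88613569-88613608 on the minus strand, began 38 bases before the start and fits both strands. Tnip1, at chr10:39585021-39585062 on the minus strand, held 4 overlapping matches that began 86 bases before the start. The matches of Nfkbie, at chr9:22948012-22948051 on the minus strand, and of Icam1, at chr8:27829611-27829650 on the plus strand, lay 164 and 219 bases before the start.

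All 10 genes were detected on every array of exposed cells, that is, each had a probe well above background on all 4, as did 52.4% of all named genes. The genes are part of a pathway known in macrophages and were not drawn at random. They were also chosen with earlier results of these data known, so both shares are given as a description. The processed signal of a spot is its brightness after background subtraction. Because replicates 2 and 3 were brighter as a whole, with 75th percentile signals of 2631 and 2861 against 1756 and 1873 for replicates 1 and 4, levels are given as log2 of the signal relative to that percentile of each array. The level of a gene is that of its detected probe, or the mean where several were detected, and is not compared between genes. With 1 array per culture, differences between cultures and between arrays cannot be told apart, and their number, 4, limits the precision. None of the 21 spots was saturated or marked as an outlier on any array.

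**Figure D1:**
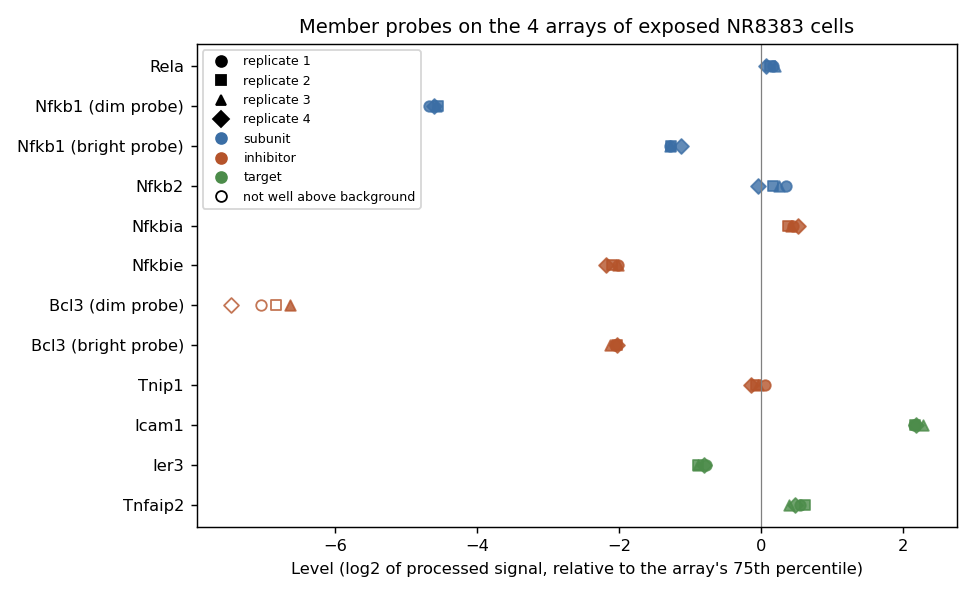
Level of each of the 12 member probes (log2 of processed signal relative to the 75th percentile of the array, horizontal axis), with 1 symbol per replicate and open symbols where the probe was not well above background. The 4 symbols of a probe nearly coincide for 11 probes, and the dim Bcl3 probe spans -7.47 to -6.63, with 1 filled symbol.

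Among the subunits, Nfkb2 had the largest SD of the 10 genes in the processed signals of all 4 arrays, an order that was lost with normexp correction and without replicate 4. Rela encodes the subunit that carries the activation domain of the classical dimer. Its processed signal was 1968 in replicate 1, 2859 in replicate 2, 3263 in replicate 3 and 1970 in replicate 4, and its level was 0.14 ± 0.05 (SD, n = 4). Once scaled, its lowest and highest arrays, replicates 4 and 3, differed by 1.08-fold.

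Nfkb1 encodes a precursor whose processed form binds DNA and has no activation domain of its own. It was measured by a pair of probes for the same accession. The brighter one had signals of 718.6, 1093, 1176 and 855.4 in replicates 1 to 4 and a level of -1.24 ± 0.07 (SD, n = 4). The dimmer one had signals of 68.6, 112.2, 120.0 and 76.5 in replicates 1 to 4 and a level of -4.60 ± 0.06 (SD, n = 4). Both were well above background on all arrays. The brighter probe exceeded the dimmer one by 3.36 on the log2 scale, between 9.74-fold and 11.2-fold on each array, so the gene's mean level of -2.92 ± 0.05 (SD, n = 4) depends on which probes are averaged. On the brighter probe replicate 4, at -1.13, stood above the other 3, which lay between -1.29 and -1.27, while on the dimmer probe replicate 4 lay inside the range of the others.

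Nfkb2 encodes the precursor used by the non-canonical branch of the pathway. Its signal was 2238 in replicate 1, 2948 in replicate 2, 3393 in replicate 3 and 1823 in replicate 4. Its levels were 0.35, 0.16, 0.25 and -0.04 in replicates 1 to 4, a mean of 0.18 ± 0.17 (SD, n = 4). Replicate 1 was highest and replicate 4 lowest, 1.31-fold apart, although these 2 arrays had similar overall brightness. Its SD of 0.165 was larger than that of 79.1% of the 8685 detected genes. Starting from the median spot signals with normexp correction, the SD of Nfkb2 was 0.0883, below that of Tnfaip2 at 0.130 and of Rela at 0.121. Without replicate 4 it was 0.0926, below that of Tnfaip2 at 0.120.

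The inhibitors were each detected on all arrays, and the order of their SDs changed with the arrays and probes used. Nfkbia encodes IkB alpha, the inhibitor that is degraded first and made again within the feedback loop. Its signal was 2394, 3429, 3834 and 2677 in replicates 1 to 4, and the scaled level was between 0.38 and 0.52. Replicate 4 was highest and replicate 2 lowest, 0.13 apart on the log2 scale. The SD of Nfkbia was 0.0559, and 0.0315 without replicate 4.

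Nfkbie encodes IkB epsilon, a slower inhibitor of the same family. Its signal was 433.5 in replicate 1, 616.0 in replicate 2, 710.4 in replicate 3 and 412.1 in replicate 4, giving a level of -2.08 ± 0.08 (SD, n = 4). Tnip1 encodes a ubiquitin-binding adaptor that restrains signalling together with the A20 protein. Its signal was 1826, 2503, 2789 and 1694 in replicates 1 to 4, and its level was -0.05 ± 0.08 (SD, n = 4). On both genes, as on Rela and Nfkb2, replicate 4 gave the lowest level of the 4 arrays. The fall of replicate 4 below the gene's own mean was 0.11 for Nfkbie and 0.10 for Tnip1 on the log2 scale, against 0.22 for Nfkb2.

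Bcl3 encodes an atypical member of the inhibitor family that works in the nucleus, where it binds dimers of the DNA-binding subunits. Its pair of probes, for the same accession, disagreed on detection. The brighter probe had signals of 423.0, 647.5, 657.1 and 459.3 in replicates 1 to 4, was well above background on all 4 arrays and gave a level of -2.06 ± 0.05 (SD, n = 4). The other probe had signals of 13.3, 23.0, 28.9 and 10.6 and was well above background in replicate 3 only, so Bcl3 counts as detected through 1 of its probes. Raw brightness of this dim probe was 1.66 to 1.99 times its local background, against 11.8 to 17.6 times for the brighter probe. The SD of Bcl3 was 0.0151 without replicate 3, and 0.164 when both probes were averaged.

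The targets were all detected by a single probe each, and none spanned more than 1.17-fold between arrays. Icam1 encodes the adhesion molecule to which leukocyte integrins bind. Its signal was 7810 in replicate 1, 11862 in replicate 2, 13889 in replicate 3 and 8481 in replicate 4, and raw brightness was 142 to 210 times the local background. Its level was 2.20 ± 0.06 (SD, n = 4), with replicate 3 at 2.28 and the others between 2.15 and 2.18, and without replicate 3 its SD was 0.0132.

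Tnfaip2 encodes a protein induced by tumour necrosis factor that takes part in forming membrane protrusions. Its signal was 2559, 4043, 3758 and 2606 in replicates 1 to 4, and its level was 0.51 ± 0.10 (SD, n = 4). Here replicate 2 was highest and replicate 3 lowest, which is not the order of Icam1.

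Ier3 encodes a short-lived immediate early protein that modulates apoptosis. It was the only member printed several times, with 10 spots of 1 probe on each array, and therefore the only one for which spot noise could be measured. Its spots ran from 971.9 to 1160 with a median of 998.4 in replicate 1, and from 1353 to 1592 with a median of 1405 in replicate 2. They ran from 1455 to 1717 with a median of 1528 in replicate 3, and from 1014 to 1218 with a median of 1056 in replicate 4. The coefficient of variation between spots was 4.61% to 6.33%, beside a median of 6.36% over the 1038 detected probes printed 10 times. After scaling, the mean levels were -0.77, -0.88, -0.89 and -0.80 in replicates 1 to 4, and the ranges of spots overlapped between all arrays. The arrays differed in limma's moderated F test over spots with Benjamini-Hochberg adjustment (adjusted p = 0.00876), by at most 0.12 on the log2 scale or 1.09-fold. Of the 1742 probes tested, 42.8% were called, and 65.7% of those printed 10 times, so a call for Ier3 does not set it apart. Its largest difference was below the median of 0.164 among probes printed 10 times. The call was lost without replicate 1 (adjusted p = 0.0609), with normexp correction (adjusted p = 0.318) and with scaling to all probes (adjusted p = 0.0748). The spots are not independent: the same spot was the brightest on all 4 arrays. With spot position as a block, a choice made after the spots had been seen, the adjusted p was 8.22e-06, and 68.1% of all probes were called.

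**Figure D2:**
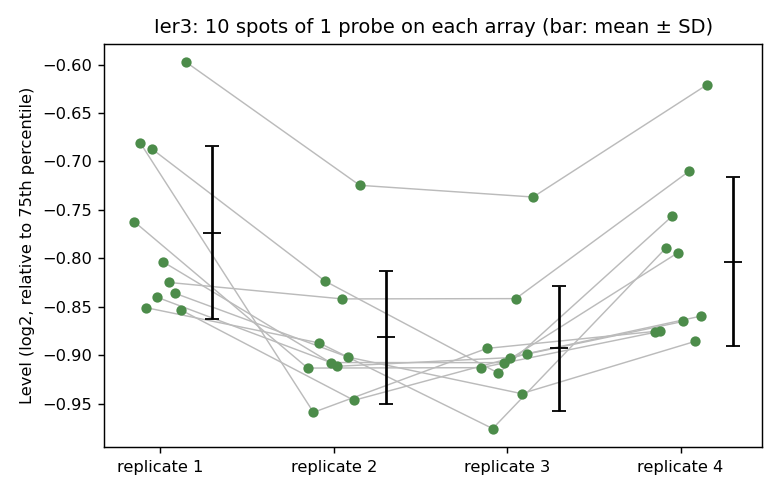
Level of the 10 Ier3 spots on each array (log2 relative to the 75th percentile, vertical axis), by replicate, with grey lines joining the same spot and bars for mean ± SD. The means lie between -0.89 and -0.77, the spot ranges overlap, and 1 spot is highest on all 4 arrays.

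Like most detected genes, the 10 genes varied little between the arrays. Each spanned between 1.07-fold and 1.31-fold from its lowest to its highest array, and 0 of 10 exceeded 2-fold, beside 1.11% of all detected genes. By Dixon's ratio, which asks whether 1 array stands apart from the rest, 0 of the 10 gene levels passed the 95% critical value, beside 6.13% of all detected genes, and 1 of the 11 detected probes did, the brighter probe of Nfkb1. Their median SD was 0.0575 on the log2 scale, beside 0.0926 over the 8685 detected genes and 0.0760 over the 4624 detected genes within the same range of levels. Of the 10, 8 had an SD below the median of all detected genes, Nfkb2 and Tnfaip2 being the exceptions. With normexp correction the median SD was 0.0952 for the 10 genes and 0.0988 for all, so the lower spread rests on the processed signals. By role, the median SD was 0.0516 for the 3 subunits, 0.0686 for the 4 inhibitors and 0.0584 for the 3 targets. The order of these small groups depends on the probes used. With its brighter probe alone Nfkb1 had an SD of 0.0748, against 0.0465, and the subunits then had the highest median.

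**Figure D3:**
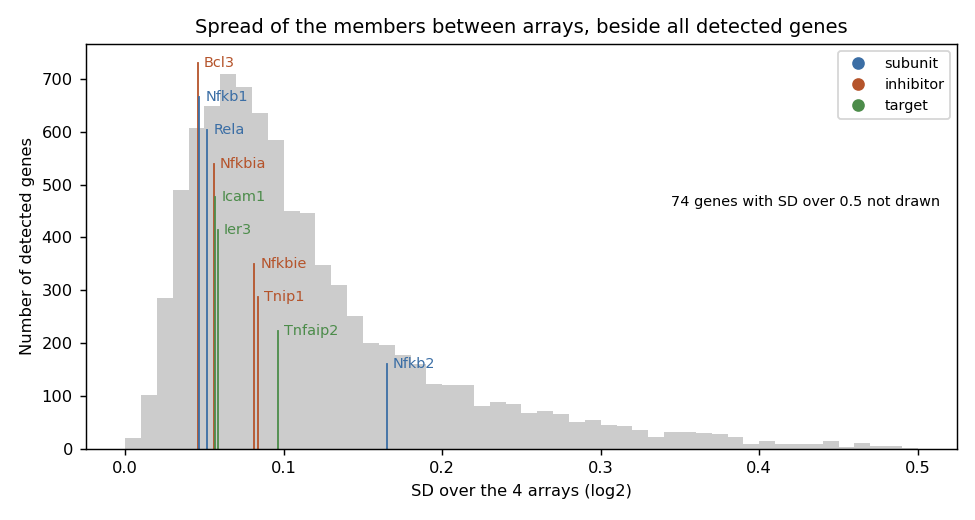
Number of detected genes (vertical axis) by SD over the 4 arrays (log2, horizontal axis), with a line for each of the 10 genes, coloured by role. The lines lie between 0.0457 for Bcl3 and 0.165 for Nfkb2, and 74 genes with an SD over 0.5 are not drawn.

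The scanner software also gave each spot an error. It was 10.0% of the signal on every array for every detected member probe but the dim Nfkb1 probe. For that probe it was 10.8% to 11.9%. The Ier3 spots, also given 10.0%, had a measured coefficient of variation of 4.61% to 6.33%. So even a value is no separate measurement of spot noise, and the SDs are set beside it as a description only. The SD between arrays of the 11 detected probes corresponded to 3.22% to 12.1% of the signal, and only Nfkb2 exceeded 10%. For the dim Bcl3 probe the stated error was 18.1% to 40.4% and the SD between arrays corresponded to 28.0%.

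No array was high or low for all members. Replicate 1 was above the gene's own mean for 8 of 10 genes, replicate 2 for 3, replicate 3 for 5 and replicate 4 for 4, where 47.6%, 45.7%, 53.0% and 53.0% of all detected genes were above theirs. The median deviation of the 10 genes was 0.03, -0.02, 0.00 and -0.02 on replicates 1 to 4. Nfkb2, Nfkbie, Tnip1 and Rela were lowest on replicate 4, whereas Nfkbia was highest there and Nfkb1 also was.

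**Figure D4:**
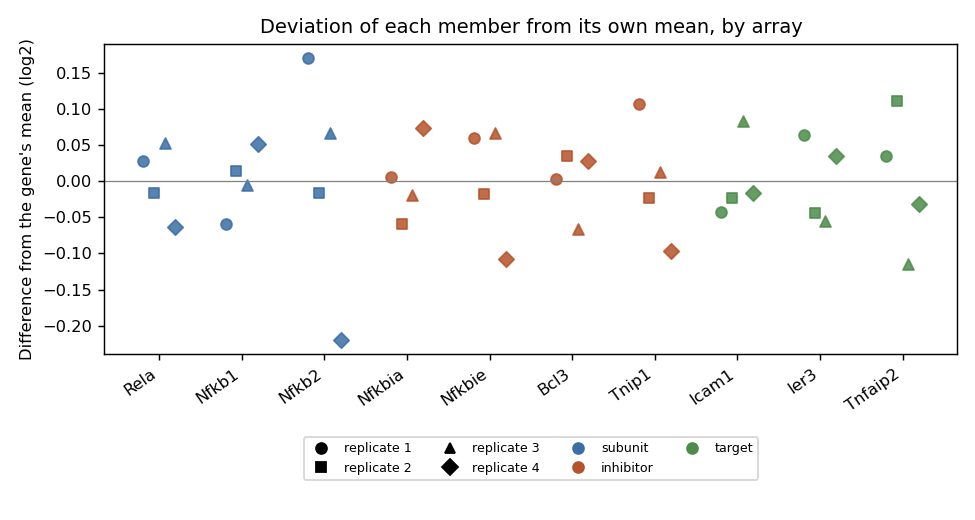
Difference of each gene from its own mean over the 4 arrays (log2, vertical axis), with 1 symbol per replicate and colour by role. Nfkb2 shows the widest range, from -0.22 in replicate 4 to 0.17 in replicate 1, and the other 9 genes stay between -0.12 and 0.11.

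Around these members, 67 further pathway genes were listed, of which 54 had a matched probe and 38 were detected on all arrays (70.4%, beside 52.4% of all named genes). These lists, too, were made with earlier results of these data known, so the shares are a description. Of the other subunits and inhibitors only Nfkbib, the gene of IkB beta, had a matched probe, and its level was -0.85 ± 0.06 (SD, n = 4). No probe was matched to Relb, Rel, Nfkbid or Nfkbiz. Of 16 measured upstream kinases and adaptors, 14 were detected on all arrays. These included the IkB kinase genes Chuk at -2.58 ± 0.20 and Ikbkb at -1.39 ± 0.05 and the gene of their scaffold, Ikbkg, at -0.41 ± 0.11 (SD, n = 4 each). Chuk and Ikbkg were each detected on all arrays by only 1 of their 2 probes. Map3k14, the kinase gene of the non-canonical branch, was well above background on 2 arrays.

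Of 9 measured brakes on the pathway, 8 were detected, and the ubiquitin ligase gene Itch was the exception. The deubiquitinase gene Cyld was at -4.16 ± 0.12 (SD, n = 4). Otulin, another deubiquitinase gene, was at -2.71 ± 0.08 (SD, n = 4), with its 3 probes spanning 6.84 on the log2 scale. No probe was matched to Tnfaip3, the gene of A20.

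Of 28 other target genes, 15 were detected on all arrays (53.6%), about the 52.4% of all named genes, 2 on some and 11 on none. The survival gene Bcl2a1 was at -1.40 ± 0.03 (SD, n = 4) and varied less than all but 4.44% of detected genes. The level of Sod2, a mitochondrial superoxide dismutase gene, had an SD of 0.0362. Both were steadier than most of the list. Over its 15 detected genes the SD ran from 0.0207 to 0.386, the highest being that of Ccl5, with a median of 0.0692. Not well above background on any array were Traf1, Birc3, Vcam1, Sele, Ccl20, Il6, Cxcl1, Ptgs2, Cd40, Csf2 and Ptx3. The kB consensus was present in 4 of 13 promoters of the target genes detected on all arrays (Cd83, Cxcl2, Irf1 and Lcn2) and in 5 of 9 promoters of those detected on none (Ccl20, Cxcl1, Il6, Ptx3 and Vcam1). These counts are small and their difference was not tested.

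**Figure D5:**
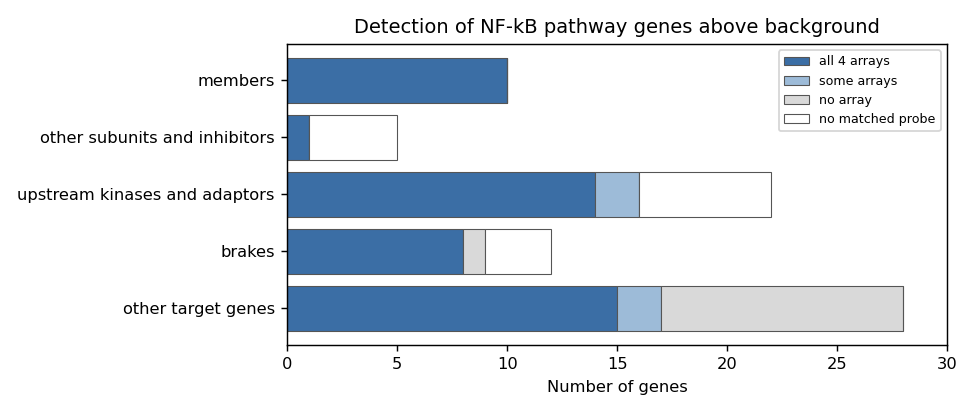
Number of genes (horizontal axis) in the 10 members and in the 4 further pathway lists, by whether a probe was well above background on all 4 arrays, on some, on none, or was not matched. All 10 members and 15 of 28 other target genes were detected on all arrays.

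The line showed most measured markers of its labelled cell type. Of 13 measured macrophage markers 11 were detected on all arrays, and Marco and Adgre1 on none. Of 16 genes listed as markers of other cell types 3 were detected on all arrays (Cd4, Cdh5 and S100a8), 3 on some and 10 on none. Cd4 was at -3.71, by 1 of its 2 probes, Cdh5 at -5.49 and S100a8 at -4.90. Whether these 3 genes mark other cells in this line was not tested. Correlations between arrays across genes ran from 0.996 to 0.998, genes not being independent replicates, and no pair of arrays held identical values.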

How the data were processed

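Total RNA of 4 exposed cultures was hybridised as Cy3-labelled cRNA to 1-colour Agilent arrays that lay on 1 slide, read in 1 scan, so neither could be tested as a batch. Per the file headers, Agilent Feature Extraction 11.0.1.1 made the deposited intensity values, which were background-subtracted and detrended within arrays and not normalized between them. The raw median intensity of spots and local background, as deposited, served for normexp (offset 50). The deposited 0 or 1 flags for detection and outliers were used as given. Outlier spots (427 to 714 per array) and control spots were dropped and log2 signals averaged per probe. A probe was detected when most of its spots were well above background (40.8% to 43.7% of 45598 probes per array). Each array was scaled to its 75th percentile over probes detected on all arrays. RefSeq accessions without version named 21109 probes (46.3%) through GRCr8. A gene's level is the mean of its detected probes. Probes printed several times entered limma's moderated F test (limma 3.58.1, R 4.3.3), adjusted over all 1742 such probes, and the test was tried on simulated data. Motifs were searched in Python 3.11.15. Named genes were all members, fixed genes of the pathway lists and any listed gene below background on every array. Members and lists were chosen with earlier results of these data known. P-values set differences between the 4 arrays against spot noise only. The series text describes the cultures as biological replicates, and alternatives are given in the closing section.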

Additional observations from a re-analysis of the deposited data

Results flagged for a closer look

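In 4 of 49 series of 4 arrays (11 member probes and the 38 further pathway genes detected on all arrays), 1 array stood apart, with a Dixon ratio above the 95% limit of 0.829. Chance passes about 1 in 20 such series, and 6.13% of all detected genes passed. The brighter Nfkb1 probe had a ratio of 0.864, with replicate 4 high by 0.11 on the log2 scale against the mean of the 4, and the dimmer Nfkb1 probe did not pass (0.512). The other 3 are named after their values were seen. The upstream kinase gene Map3k7 had a ratio of 0.927 within a range of 1.19-fold, and the cytokine gene Il1b a ratio of 0.926 within 0.142 on the log2 scale. The upstream kinase gene Irak4 had a ratio of 0.852. Its levels were -6.38, -6.20, -6.14 and -4.81 in replicates 1 to 4, a range of 2.95-fold measured by 1 probe. The lowest detected levels of these arrays were -6.81, -7.4, -7.49 and -6.89, and Irak4 lay nearest to them in replicate 1.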

How the results depend on the processing

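No paired analysis was possible because the samples form 1 group. Naming probes by a gene name column could not be run because the files used here hold only accessions. All 10 members stayed detected in each of the 7 settings run for that count, and the further pathway genes detected numbered 38 to 46. The median SD of the members was 0.0952 with normexp correction, against 0.0575, and stayed within 1.5 times of that elsewhere, at 0.0589 to 0.0643 when 1 replicate was left out. The number of member probes called different between arrays, 1 (Ier3), became 0 with normexp correction and 0 with scaling to all probes, and ran from 0 to 1 when 1 replicate was left out. Why these settings differ was not tested. All 10 levels moved by over 1 SD with the median of detected probes, with all probes and with the looser flag. These settings change the reference subtracted from each array, so a shift common to the genes was fixed in advance. With the median of detected probes, for example, Rela moved to 2.56 and Nfkb1 to -0.50. Under the looser flag 9 rose and Bcl3 fell to -3.75. With normexp correction 9 of 10 moved, in both directions (Rela to -0.14, Tnip1 to 0.20). Without replicate 1, 5 moved, and 0 moved with quantile normalization. With no filter on dim probes Bcl3 was at -4.53, against -2.06, because its dim probe enters the mean. Signal over background limits the dim Bcl3 probe, and 11 of 12 probes had 1 spot per array.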
